A study of Mus musculus with 6 samples.

Results

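The genes described here are the 67 protein-coding histone genes among 25166 rows of an RNA-seq table of mouse muscle stem cells (MuSCs), the resident stem cells of skeletal muscle. Members were chosen by name. A gene belonged if its GENCODE vM21 symbol began with Hist1h to Hist4h, H2af, H3f3 or H1f, and GENCODE symbols of the same Ensembl identifiers were used because the table lists most of these genes under newer symbols, so that only 15 of the 67 match by their deposited symbol. The Hist genes form 56 replication-dependent members, and the other 11 are variant genes. MuSCs were sorted by FACS from C57BL/6 mice and used without culture. Sirt6mKO mice carried Sirt6 alleles with loxP-flanked exons and a constitutively active Cre under the Pax7 promoter (Pax7-ICN), a driver that acts in the whole Pax7 lineage and not in MuSCs alone. Control (Ctrl) mice are named wild type in the labels, while legends of the study show controls of the same line as floxed animals without Cre. The labels name no treatment, age or sex, and the legend of the study for this experiment gives males aged 12 weeks. Each group had 3 libraries, each made from the RNA of 100 to 200 cells, and the labels do not say whether a library is 1 animal or a pool.

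Histones are the proteins around which DNA is wrapped: H2A, H2B, H3 and H4 form the core of the nucleosome and H1 binds the linker DNA. Replication-dependent histone genes lie in clusters, have no introns and are transcribed mainly in S phase. Their mRNAs normally end in a short stem-loop, bound by SLBP and cut with the help of the U7 snRNP, in place of a poly(A) tail. Variant genes, such as those for H3.3, H2A.Z, macroH2A and H1.0, are expressed throughout the cell cycle, most have introns, and their mRNAs are polyadenylated. Libraries here were made from total RNA after removal of ribosomal RNA, which does not select for a poly(A) tail. The study asked what the loss of Sirt6, a deacetylase that removes acetyl groups from lysine residues of histone H3, does in MuSCs.

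The stem-loop is the sequence that sets the replication-dependent class apart, and it is shown for 4 abundant members and for the one variant gene that holds it. Capitals mark the 16-base stem-loop found in the annotated transcript, and lower case marks the 5 bases on each side, all 5′ to 3′ on the strand of the gene, from GENCODE vM21 transcripts (GRCm38).
H1f4 (Hist1h1e), chr13:23621777-23621802, minus strand: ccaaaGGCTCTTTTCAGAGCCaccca
H2ac20 (Hist2h2ac), chr3:96220413-96220438, minus strand: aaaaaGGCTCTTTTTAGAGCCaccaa
H4f16 (Hist4h4), chr6:136803993-136804018, minus strand: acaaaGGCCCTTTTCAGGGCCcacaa
H4c14 (Hist2h4), chr3:96262934-96262959, minus strand: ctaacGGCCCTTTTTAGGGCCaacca
H2ax (H2afx), chr9:44335235-44335260, plus strand: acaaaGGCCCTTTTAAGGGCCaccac
The letters searched were GG, any 3 bases, TT, any base, T, any base, A, any 3 bases and CC, on the transcript strand only, with the 3 inner pairs of the stem complementary and G-T pairs allowed. A match was found in 40 of the 56 replication-dependent genes (71.4%), in 1 of the 11 variant genes (9.09%) and in 86 of 21884 other protein-coding genes (0.393%). The first bases of the stem split the matches by histone, as the printed sequences show. All 12 H4 genes with a match had a stem that opened with GGCCC or GGTCC. The 4 H1, 9 H2B, 8 H3 and 7 H2A replication-dependent genes with a match opened with GGCTC. H2ax, which encodes the H2A.X protein phosphorylated at DNA breaks, had a stem that opened with GGCCC. These matches are a description of the annotated sequence and no stem-loop was measured.

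The deposited values are reads per gene divided by one scaling factor per library and rounded, called signal below. Total signal was 2272307 to 2369973 per library, and the scaling factors recovered from the values put depth at 1266987 reads for Ctrl replicate 3, 1901938 for Ctrl replicate 1 and 2471958 to 3208460 for the other 4. One read was therefore worth 0.729 to 1.79 units of signal. Sirt6 itself, the targeted gene, had a signal of 19, 20 and 13 in Sirt6mKO replicates 1 to 3 and 18, 17 and 20 in Ctrl. These gene totals also cover exons outside the floxed part, their groups overlapped (log2 fold change -0.10 ± 0.29 SE, limma-trend, Benjamini-Hochberg adjusted p = 0.913), and group names below are those of the labels. MuSC identity was visible in both groups, with a sum over 12 MuSC marker genes (Pax7, Myf5, Itga7 and others) of 13454 to 14445 in Sirt6mKO and 14987 to 16801 in Ctrl. By adjusted p alone Pax7 and Chrdl2 were lower and Cd34 was higher in Sirt6mKO. Over all tested genes 4.52% passed this threshold in either direction, which is the background for the marker lists here. Markers of other cells moved with the groups as well. The 12 myofiber markers summed to 1371 to 2974 in Sirt6mKO and 1001 to 1188 in Ctrl, with Acta1, Ttn, Mylpf and Myoz1 higher by adjusted p, and 3 of 9 tested fibroblast markers (Pdgfra, Col1a1 and Col1a2) were higher, with sums of 12832 to 14743 against 8870 to 13400. The immune markers (42 to 82 against 43 to 76), mural markers (587 to 677 against 582 to 708) and Schwann markers (103 to 156 against 151 to 199) overlapped, the endothelial markers (390 to 463 against 477 to 579) did not, and none of these 3 overlapping lists nor the endothelial one had a gene past the adjusted threshold. Ly6a, whose protein Sca1 was excluded by the sort, was at 0 to 2 and Cldn5, an endothelial marker, at 0 to 1 in every library. Pecam1, whose protein CD31 was also excluded, had 22, 27 and 24 in Sirt6mKO and 11, 4 and 29 in Ctrl. Vwf, another endothelial marker, had 17, 13 and 8 against 10, 6 and 7. Both Pecam1 and Vwf overlapped between the groups, with fold changes above 0. Most of the endothelial sum was Tek, at 349, 412 and 367 in Sirt6mKO and 454, 562 and 430 in Ctrl. Tek was the only tested endothelial marker with a fold change below 0, so the lower endothelial sum in Sirt6mKO rested on this gene. Tenocyte markers ranged from 60 to 1045 in Sirt6mKO and 49 to 71 in Ctrl, and erythroid markers from 13 to 60 and 23 to 545. The part of other cells in the histone values was not tested, and fewer cells of a type cannot be told apart from less RNA per cell in bulk libraries.

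Histone transcripts made up a small and similar share of the libraries, 0.103% to 0.12% of all signal. Variant genes carried more of it than the replication-dependent genes in every library, although they are fewer. The 11 variant genes summed to 1697, 1771 and 1718 in Sirt6mKO replicates 1 to 3 and to 1669, 1707 and 1354 in Ctrl replicates 1 to 3. The 56 replication-dependent genes summed to 799, 738 and 1094 in Sirt6mKO and to 1015, 964 and 991 in Ctrl. Neither sum separated the groups. The variant sum was 1729 ± 38.1 against 1577 ± 194 (SD, n = 3 each), a log2 ratio of 0.13, with Ctrl replicate 3 the one low library. The replication-dependent sum was 877 ± 190 against 990.0 ± 25.5, a log2 ratio of -0.17, with Sirt6mKO replicate 3 above all others and Sirt6mKO replicates 1 and 2 below all controls. With one library left out the replication-dependent log2 ratio was between -0.06 (without Sirt6mKO replicate 2) and -0.37 (without Sirt6mKO replicate 3), and that of the variants fell to 0.03 without Ctrl replicate 3.

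**Figure D1:**
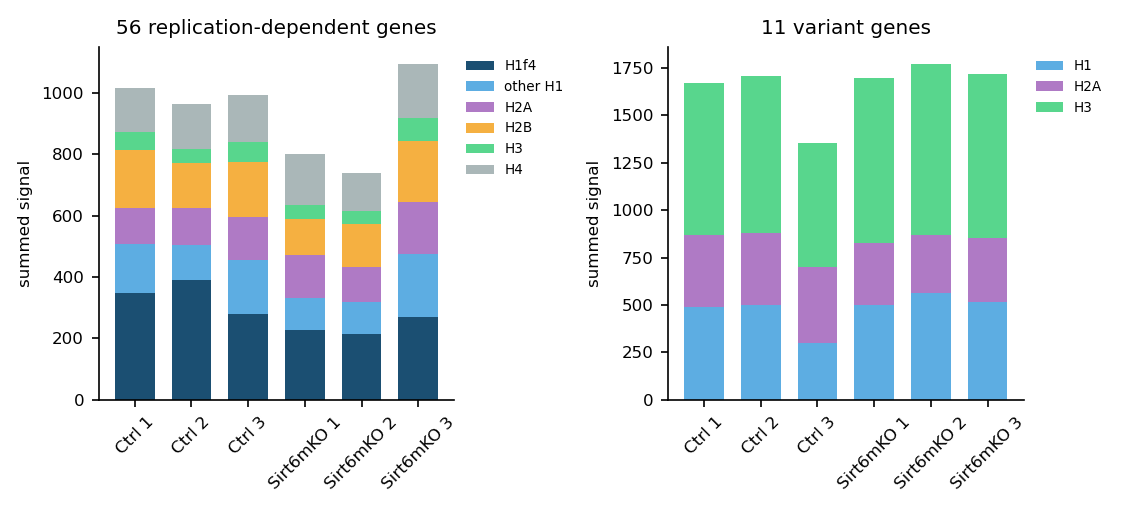
Summed signal per library (bars from 0; x axis, the 3 Ctrl and 3 Sirt6mKO libraries) of the 56 replication-dependent genes (left, H1f4 drawn apart from the other H1 genes) and of the 11 variant genes (right), stacked by histone. The replication-dependent sums run from 738 to 1094 and the variant sums from 1354 to 1771, and the H1f4 block is smaller in all 3 Sirt6mKO libraries.

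No histone gene passed the thresholds of the study's methods, an adjusted p up to 0.05 together with a 2-fold change, in either direction, while 368 of 14227 tested genes did (2.59%, with 1.57% higher and 1.02% lower). Of the 67 members, 40 had the mean signal of at least 5 needed for a test, 31 replication-dependent and 9 variant. The other 27 had means of 0.5 to 4.83 and were not tested. Limma-trend called 0 of the 40 by adjusted p alone as well, where 4.52% of all tested genes passed, and 3 of the 40 had an unadjusted p under 0.05 (18.1% of all tested genes): H1f4, H3f3a and H3f3b. A second tool, limma-voom on reads recovered with the scaling factors, also called 0 by both thresholds, where 2.62% of all tested genes passed. By adjusted p alone it placed 1 member, H1f4, under 0.05 (4.82% of all tested genes), and 6 members had an unadjusted p under 0.05 (19.3%). Among the replication-dependent genes 13 fold changes were above 0 and 18 below, and their median was -0.01 on the log2 scale. Among the variants 4 were above and 5 below, and the median was -0.26. That median turned to 0.14 over all 11 variants with no filter on low signal, and was -0.14 without Sirt6mKO replicate 2 or without Ctrl replicate 1. Over all tested genes it was 0.00194. The interval of the log2 fold change stayed between -1 and 1, that is within 2-fold either way, for 18 of the 40 genes (11 replication-dependent and 7 variant). For the remaining 22 the interval reached a 2-fold change in at least one direction.

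**Figure D2:**
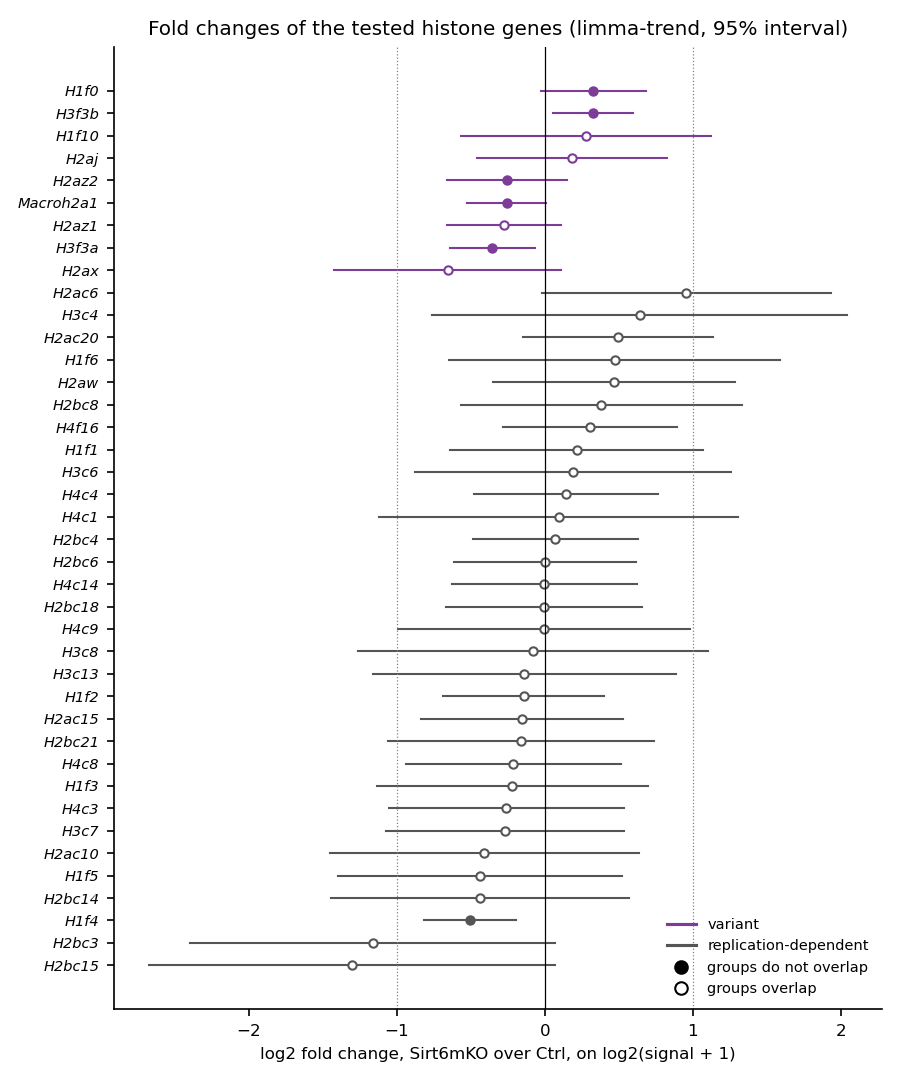
Log2 fold change of Sirt6mKO over Ctrl with its 95% interval (x axis, limma-trend on log2(signal + 1)) for the 40 tested histone genes (y axis), 9 variants in purple above 31 replication-dependent genes in grey, filled where the 3 libraries of one group all lie beyond those of the other. Dotted lines mark 2-fold. Only 6 points are filled, and 5 of them are variants.

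The groups did not overlap for 6 of the 40 tested genes, 2 higher and 4 lower in Sirt6mKO, against 21.2% of all tested genes (11.1% higher and 10.1% lower). One was replication-dependent (1 of 31) and 5 were variants (5 of 9). With 3 libraries a group an exact permutation test cannot go below p = 0.1, so the separations are given as values with no such test.

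H1f4 was the most abundant replication-dependent gene and the one with the smallest p. It encodes the linker histone H1.4 and lies on chromosome 13 at positions 23620629 to 23622558 (minus strand) in the large histone cluster. It reached 228, 216 and 269 units in Sirt6mKO replicates 1 to 3 and 348, 390 and 281 units in Ctrl replicates 1 to 3. All Sirt6mKO libraries were below all controls, the nearest being Sirt6mKO replicate 3 and Ctrl replicate 3. The means were 238 ± 27.8 and 339.7 ± 55.0 (SD, n = 3). On the log2 scale the change was -0.51 ± 0.14 SE, with a Benjamini-Hochberg adjusted p of 0.0669 in limma-trend, and so outside the threshold. The adjusted p was 0.036 with limma-voom and 0.0278 without Ctrl replicate 3, and otherwise ranged up to 0.25 over the settings tried, with a fold change under 2 in each. H1f4 shares 496 of its 1930 exon bases (25.7%) with other genes on the same strand, H2bc6 and Gm11398. Reads on more than one gene were left out by the authors' counting.

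The other H1 genes differed from H1f4 in their spread. H1f2 (Hist1h1c), which encodes H1.2, had 49, 50 and 90 in Sirt6mKO and 81, 71 and 52 in Ctrl. H1f3 (Hist1h1d), which encodes H1.3, had 30, 34 and 85 against 53, 28 and 93. In both genes Sirt6mKO replicate 3 stood far above the other 2 Sirt6mKO libraries and the groups overlapped. The log2 fold changes were -0.14 ± 0.25 SE for H1f2 and -0.22 ± 0.42 SE for H1f3. The 5 replication-dependent H1 genes without H1f4 summed to 103, 103 and 206 in Sirt6mKO and 159, 115 and 174 in Ctrl. Of the 6 H1 genes of this class all were tested, 2 lay above 0 and 4 below.

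H1f0 encodes H1.0, the replication-independent linker histone that accumulates in resting and differentiated cells, and lies on chromosome 15 at 79028450 to 79030504 (plus strand). It had 475, 538 and 491 in Sirt6mKO and 459, 472 and 292 in Ctrl. The groups were separated by a margin of 3 units, and Ctrl replicate 3, the shallowest library, was far below the rest. The change was 0.33 ± 0.16 SE on the log2 scale (limma-trend, Benjamini-Hochberg adjusted p = 0.322), and 0.11 without Ctrl replicate 3. H1f10 (H1fx), the other tested variant H1 gene, had 22, 26 and 24 in Sirt6mKO and 30, 27 and 9 in Ctrl, again with Ctrl replicate 3 lowest. Its log2 fold change of 0.28 ± 0.39 SE turned to -0.24 without that library.

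H3f3b and H3f3a both encode the H3.3 protein, the H3 variant deposited outside S phase, from separate genes with different promoters and untranslated regions. H3f3b, on chromosome 11 at 116021912 to 116027962 (minus strand), was the most abundant histone gene, with 756, 790 and 735 in Sirt6mKO and 660, 672 and 502 in Ctrl. H3f3a, on chromosome 1 at 180800832 to 180813943 (minus strand), had 116, 110 and 128 in Sirt6mKO and 141, 158 and 154 in Ctrl. Every Sirt6mKO library was above every control for H3f3b and below every control for H3f3a. H3f3b was 760.3 ± 27.8 against 611 ± 94.9 (SD, n = 3), a log2 fold change of 0.33 ± 0.13 SE (limma-trend, Benjamini-Hochberg adjusted p = 0.186), and 0.19 without Ctrl replicate 3. H3f3a was 118 ± 9.16 against 151 ± 8.89 (SD, n = 3), a log2 fold change of -0.35 ± 0.13 SE (limma-trend, Benjamini-Hochberg adjusted p = 0.175). Neither passed the adjusted threshold, and a share of 22.8% of the H3f3a exon bases lies under exons of genes on the other strand. The sum of both genes was 872, 900 and 863 in Sirt6mKO and 801, 830 and 656 in Ctrl.

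The ratio of the 2 H3.3 genes within a library does not depend on the scaling between libraries. H3f3b over H3f3a was 6.52, 7.18 and 5.74 in Sirt6mKO and 4.68, 4.25 and 3.26 in Ctrl, so the groups did not overlap (6.48 ± 0.721 against 4.07 ± 0.729, SD, n = 3). H1f0 over H1f4 was 2.08, 2.49 and 1.82 in Sirt6mKO and 1.32, 1.21 and 1.04 in Ctrl (2.13 ± 0.336 against 1.19 ± 0.141, SD, n = 3), also without overlap. The replication-dependent sum over the variant sum was 0.471, 0.417 and 0.637 in Sirt6mKO and 0.608, 0.565 and 0.732 in Ctrl, and overlapped. H2az1 over H2az2, the other pair computed, was 1.85, 1.41 and 1.77 in Sirt6mKO and 1.27, 1.67 and 2.26 in Ctrl, with overlap. The gene pairs were chosen after the values of their members were seen, so the ratios are descriptions with no test. H3f3b and H1f0 already lay above every control, and H3f3a and H1f4 below, in all Sirt6mKO libraries. The ratios of these pairs therefore had to separate the groups, and their lack of overlap adds no further result.

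**Figure D3:**
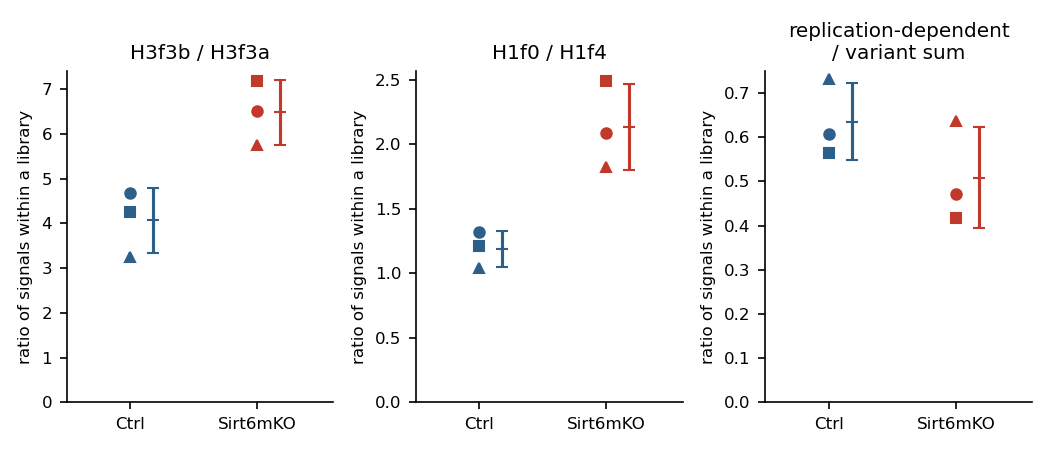
Ratios of signals within each library (y axes, from 0) for H3f3b over H3f3a, H1f0 over H1f4, and the replication-dependent sum over the variant sum, in Ctrl (blue) and Sirt6mKO (red); circles, squares and triangles are replicates 1, 2 and 3, and bars give the mean and SD of 3 libraries. H3f3b over H3f3a lies between 5.74 and 7.18 in Sirt6mKO and between 3.26 and 4.68 in Ctrl, and the ratio of the class sums overlaps.

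Of the 6 variant H2A genes, 5 were tested and 4 of these had fold changes below 0. Macroh2a1 (H2afy) encodes macroH2A1, a variant with a large globular domain that is enriched on silent chromatin. It had 152, 145 and 154 in Sirt6mKO and 194, 178 and 169 in Ctrl, all Sirt6mKO libraries below all controls, with a log2 fold change of -0.26 ± 0.12 SE (limma-trend, Benjamini-Hochberg adjusted p = 0.295). H2az1 (H2afz) and H2az2 (H2afv) encode the H2A.Z proteins found at promoters and enhancers. H2az1 had 87, 65 and 85 in Sirt6mKO and 84, 90 and 113 in Ctrl, and 1 control library lay within the Sirt6mKO range. H2az2 had 47, 46 and 48 against 66, 54 and 50, the 3 Sirt6mKO values within 2 units of each other and all below the controls by at least 2. Neither passed the test (log2 fold changes -0.27 ± 0.18 SE and -0.26 ± 0.19 SE). H2ax had 12, 19 and 9 against 16, 19 and 29 (log2 fold change -0.66 ± 0.35 SE, limma-trend, Benjamini-Hochberg adjusted p = 0.366), and H2aj (H2afj) had 27, 28 and 41 against 18, 34 and 34, with overlap in both. The summed signal of the 6 variant H2A genes was 327, 306 and 340 in Sirt6mKO and 379, 376 and 397 in Ctrl, which did not overlap (324 ± 17.2 against 384 ± 11.4, SD, n = 3). The 3 variant H1 genes summed to 526 ± 34.8 in Sirt6mKO and 430.3 ± 112 in Ctrl, with overlap, and the 2 variant H3 genes to 878 ± 19.3 and 762 ± 93.2 (SD, n = 3), without.

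**Figure D4:**
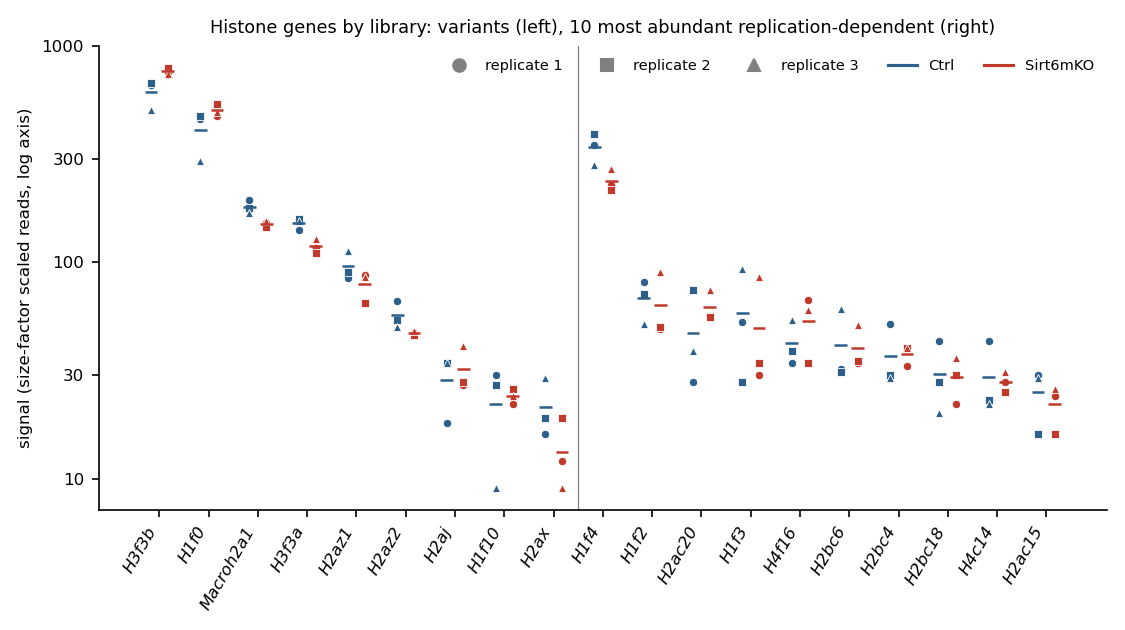
Signal of each library (y axis, log scale) for the 9 tested variant genes (left of the line) and the 10 most abundant replication-dependent genes (right), Ctrl in blue and Sirt6mKO in red, with circles, squares and triangles for replicates 1, 2 and 3 and short bars for the mean of 3 libraries. H3f3b and H1f0 lie above and H1f4, Macroh2a1, H3f3a and H2az2 below the controls in all 3 Sirt6mKO libraries; the other 13 genes overlap.

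The replication-dependent genes that encode the core histones were low and did not separate the groups. The 10 most abundant genes of the class held 71.8% of its signal and H1f4 alone 30.9%, with all 6 H1 genes at 46.3%, the 14 H2B genes at 17.2%, the 13 H4 genes at 16.2%, the 12 H2A genes at 14.3% and the 11 H3 genes at 6.00%. Summed over the genes of a histone, H2A was 140.3 ± 29.0 in Sirt6mKO against 126 ± 11.9 in Ctrl, H2B 152 ± 41.3 against 170.0 ± 21.9, H3 54.7 ± 16.9 against 57.3 ± 9.07 and H4 155 ± 27.6 against 147 ± 5.51 (SD, n = 3). All 4 overlapped. H2ac20, an H2A gene of the chromosome 3 cluster, had 56, 56 and 74 in Sirt6mKO and 28, 74 and 39 in Ctrl. H4f16, an H4 gene on chromosome 6 outside the clusters, had 67, 34 and 60 against 34, 39 and 54. Their log2 fold changes were 0.50 ± 0.30 SE and 0.30 ± 0.27 SE, and neither passed the test. H2bc6 (Hist1h2be), H2bc4 (Hist1h2bc), H2bc18 (Hist2h2bb) and H4c14 lay within 0.08 of 0 on the log2 scale, with signals between 20 and 61 in every library. H2ac15 (Hist1h2ak) had 24, 16 and 26 in Sirt6mKO and 30, 16 and 29 in Ctrl. The widest fold changes belonged to genes of few reads. H2ac6 (Hist1h2ac) had 12, 8 and 14 in Sirt6mKO and 9, 3 and 5 in Ctrl, and H2bc15 (Hist1h2bn) had 2, 2 and 2 against 7, 2 and 16, where 3 reads amount to 2.19 to 5.38 units of signal. These last 2 genes were chosen for their values.

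The replication-dependent genes moved together among the Sirt6mKO libraries. Sirt6mKO replicate 3 had the highest signal of its group for 23 of the 31 tested replication-dependent genes (74.2%), against 33.2% of all tested genes and 4 of 9 variants. H1f2 and H1f3 are examples already given. Among controls no library led to that extent, with Ctrl replicate 3 highest for 14 of 31 (45.2%), against 31.3% of all tested genes. Genes of the class share sequence and are not independent of each other, so the shares are given with no test. Among 24 tested S phase and proliferation genes Sirt6mKO replicate 3 was highest of its group for 16 (66.7%). Ctrl replicate 3 was highest of its group for 13 of these 24 (54.2%), so both replicate 3 libraries led their group. Of the 3 most abundant, Mcm7 and Mcm4 encode subunits of the replicative helicase. Mcm7 had 208, 180 and 219 in Sirt6mKO and 226, 224 and 194 in Ctrl. Mcm4 had 214, 200 and 201 against 155, 164 and 143, all Sirt6mKO libraries above all controls and replicate 1 highest (log2 fold change 0.41 ± 0.12 SE, limma-trend, Benjamini-Hochberg adjusted p = 0.0835). Mki67, a marker of cycling cells, had 30, 76 and 182 in Sirt6mKO replicates 1 to 3 and 289, 119 and 186 in Ctrl, with overlap (log2 fold change -1.30 ± 0.49 SE, limma-trend, Benjamini-Hochberg adjusted p = 0.173). The sum over 25 S phase and proliferation genes was 1185, 1155 and 1544 in Sirt6mKO and 1430, 1242 and 1493 in Ctrl, highest in Sirt6mKO replicate 3. The part of cycling cells in the replication-dependent signal was not tested.

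How well these genes can be counted differed between the classes. Of all 75-base windows of a gene's annotated transcripts, the length of one read, a median of 62.3% were found in no other annotated gene for the replication-dependent class and 94.8% for the variants. In 3 replication-dependent genes (H2bc18, H3c13 and H2ac19) no window was unique, and in 23 of 56 fewer were unique than not, which was the case for none of the variants. A window also counted as shared when its reverse complement lay in another annotated gene. All exon bases of H2bc18, H3c13 and H2ac19 (100%) lie under exons of genes on the other strand. Their 0% therefore does not show whether their reads match several places. Other genes under such exons lose windows in the same way. The counting left out reads with several matches, so signal is uncertain for genes whose reads do match elsewhere. Per kilobase of annotated exon, the median signal was 7.97 for the replication-dependent class and 24.3 for the variants, with H3f3b at 230.5, H1f0 at 221, H1f4 at 149.6 and H2ac20 at 105 the highest of those named. This division allows for annotated length only. It does not allow for the share of unique windows or for transcripts that end before the annotated end, so it does not make the classes fully comparable.

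**Figure D5:**
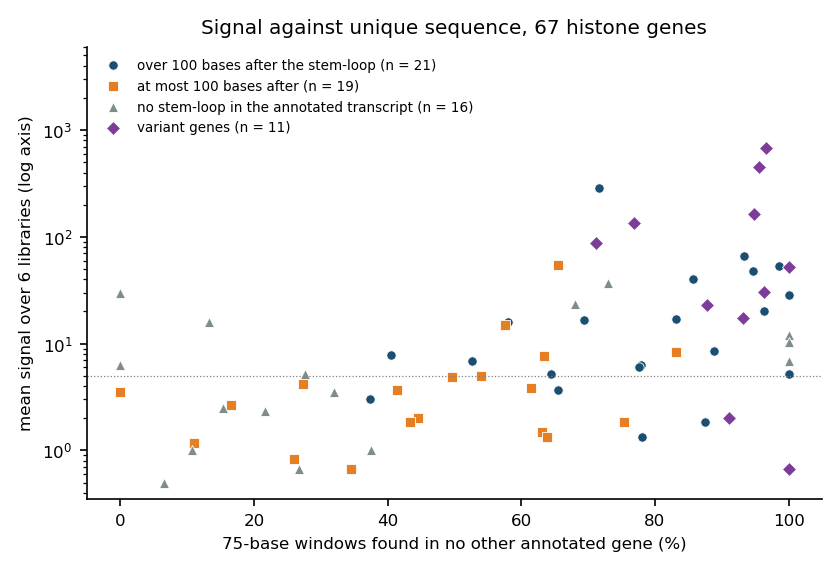
Mean signal over the 6 libraries (y axis, log scale) against the percent of 75-base windows found in no other annotated gene (x axis) for the 67 histone genes, marked by how far the annotated transcript of a replication-dependent gene runs past the stem-loop; the dotted line is the mean signal of 5 needed for a test. The 3 replication-dependent genes at 0% are H2bc18, H3c13 and H2ac19, and the variants lie at 71.2% or more.

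The annotated end of the transcript divided the replication-dependent genes further. In 21 genes the annotated transcript ran 108 to 4884 bases past the stem-loop, and these held 69.7% of the class signal with 17 genes tested. In 19 genes it ended 3 to 74 bases past the stem-loop, and these held 13.3% with 5 tested. The 16 genes with no match in the annotated transcript held the rest of the signal with 9 tested. The median fold changes were 0.09, -0.21 and -0.15 on the log2 scale. H1f4 is annotated 1153 bases past the stem-loop printed above, H4c14 1257, H4f16 2445 and H1f3 4884, whereas H2ac20 ends after 57. Gene totals do not show on which side of the stem-loop the reads lay, so ends at the stem-loop and longer transcripts cannot be told apart here.

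Genes that process histone mRNAs and place histones were followed as lists. Of 15 tested genes for transcription and 3′ end processing of replication-dependent histone mRNAs, 0 passed an adjusted p of 0.05 in limma-trend or limma-voom, 3 had an unadjusted p under 0.05 in either (18.1% and 19.3% of all tested genes), and 9 lay above 0 and 6 below. Slbp, which encodes the stem-loop binding protein, had 54, 65 and 84 in Sirt6mKO and 95, 79 and 97 in Ctrl (log2 fold change -0.43 ± 0.19 SE, limma-trend, Benjamini-Hochberg adjusted p = 0.251), and overlapped by 1 library. Casp8ap2, a factor for histone gene transcription and processing, had 259, 196 and 199 against 191, 141 and 176 (0.36 ± 0.15 SE, limma-trend, Benjamini-Hochberg adjusted p = 0.236) without overlap. The 3 most abundant genes of the list, Srrt, Upf1 and Sympk, had log2 fold changes of -0.17, -0.04 and 0.03.

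Of 30 genes for histone chaperones and deposition factors, 29 were tested, 7 lay above 0 and 22 below, and 1 passed by adjusted p alone, where 4.52% of all tested genes did. That gene was Ubn1, a subunit of the HIRA complex that deposits H3.3, at 336, 359 and 370 in Sirt6mKO and 465, 462 and 516 in Ctrl. All Sirt6mKO libraries were below all controls, and the log2 fold change was -0.44 ± 0.11 SE (limma-trend, Benjamini-Hochberg adjusted p = 0.0382), a fold change under 2. Its paralog Ubn2 had 549, 592 and 575 against 648, 677 and 794 and did not pass (limma-trend, Benjamini-Hochberg adjusted p = 0.172), while Hira itself had 30, 36 and 39 against 26, 40 and 34. Chaf1a, a subunit of the CAF-1 complex that places newly made H3 and H4 behind the replication fork, had 38, 32 and 36 against 54, 50 and 63, also without overlap (limma-trend, Benjamini-Hochberg adjusted p = 0.097). The 3 most abundant of the list, Ncl, Atrx and Npm1, had log2 fold changes of -0.34, -0.03 and 0.12.

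Of 24 tested S phase and proliferation genes, 0 passed the adjusted p in limma-trend and 1, E2f2, in limma-voom. E2f2 was lower, with 47, 43 and 51 in Sirt6mKO and 60, 87 and 104 in Ctrl, without overlap (log2 fold change -0.79 ± 0.21 SE, limma-trend, Benjamini-Hochberg adjusted p = 0.0568). Of the 24, 5 had an unadjusted p under 0.05 in either (18.1% and 19.3% of all tested genes), and 8 lay above 0 and 16 below. The writers and erasers of acetylation at lysine 56 of H3 (7 genes, with Crebbp, Ep300 and Sirt2 the most abundant, at log2 fold changes of 0.01, 0.01 and 0.07) had 0 past the adjusted p and 0 at an unadjusted p under 0.05 in limma-trend and in limma-voom. Among 10 tested RNAs that lack a poly(A) tail like the replication-dependent histone mRNAs do, 2 were higher in Sirt6mKO by adjusted p (4.52% of all tested genes passed in either direction): Rprl3 with 92, 63 and 40 against 2, 1 and 0, and Rprl2 with 16, 11 and 5 against 0, 2 and 0. Rn7sk, the most abundant of them, had 3164, 2823 and 3791 in Sirt6mKO and 4331, 3081 and 4729 in Ctrl, and overlapped. The next most abundant, Scarna2 and Scarna13, had log2 fold changes of 0.23 and 0.28 and did not pass. Of these 10 RNAs, 6 lay above 0 and 4 below. Rpph1 was lower, with 5, 9 and 6 in Sirt6mKO and 14, 15 and 22 in Ctrl, without overlap (log2 fold change -1.24 ± 0.37 SE, limma-trend, Benjamini-Hochberg adjusted p = 0.0879).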

How the data were processed

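The authors deposited one table of 25166 genes by 6 libraries. Per the labels' processing notes, reads were trimmed with Trimmomatic 0.39, mapped with STAR 2.7.10a to mm10 (GRCm38), counted with featureCounts 2.0.2 and scaled with DESeq2 1.30.1 (the study's methods name Reaper for trimming, and RiboMinus depletion where the labels name RiboGone); use of strand in counting is not given in the sources used here. The deposited signal is thus scaled and rounded reads, not counts. Scaling factors, and from them depth, were recovered from the spacing of the whole numbers that occur in each column. Floors (3 reads) cover counting error only. Intervals of the fold changes come from the SE of limma-trend and so from the spread between libraries.

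Genes whose mean signal reached 5 were tested as log2(signal + 1) with limma-trend (limma 3.58.1, R 4.3.3), Sirt6mKO against Ctrl, 3 libraries each and no covariate, with Benjamini-Hochberg adjustment over 14227 genes; a fold change on this scale understates the change of low genes. P-values measure the spread between these libraries, which may be technical. Members were found by the GENCODE vM21 symbol of the same identifier (25098 of 25166 matched), and 67 of 82 matching GENCODE genes are rows of the table. Stem-loops and 75-base windows were read from GENCODE vM21 transcripts. Named were every tested variant gene, the 10 most abundant replication-dependent genes, the 3 members of smallest p and, of each pathway list, genes past an adjusted p of 0.05 and the 3 most abundant; other genes named were chosen after their values were seen. Members and lists were chosen with earlier results of these data known. Alternatives were the scaling, the pseudocount, the filter, a replicate block, limma-voom, the threshold and leaving out each library.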

Additional observations from a re-analysis of the deposited data

How the results depend on the processing

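The count of 0 histone genes past both thresholds was the same under every setting tried, in either direction. The count over all tested genes was 128 with a mean signal of at least 50, 643 by adjusted p alone and 435 with a replicate block, and 173 to 445 with one library left out (173 without Sirt6mKO replicate 1 and 179 without Sirt6mKO replicate 2). To see whether libraries of the same number vary together, each log2 value was taken as its deviation from the mean of its group. These deviations, not the profiles themselves, correlated between Sirt6mKO and Ctrl libraries of the same number at 0.0235, 0.0663 and 0.188 for replicates 1 to 3. The value of the replicate 3 libraries was the highest of all pairs. Correlations of the replicate 3 libraries with the other libraries of the opposite group were negative (-0.0793 to -0.129). Deviations within a group sum to 0 for each gene, so these values are not independent of each other. Sirt6mKO replicate 1 correlated best with Ctrl replicate 2 (0.073). The numbers were not read as pairs in the main test, and these values do not settle whether libraries were paired. The block changed no histone call, while the SE of H1f3 was 0.423 without it and 0.233 with it. The median log2 fold change of the variants was 0.138 with no filter, which adds 2 genes of few reads, and -0.27 to -0.141 with one library left out; that of the replication-dependent genes was -0.196 to 0.0301. The count of histone genes without overlap was 6 to 13 with one library left out, when groups of 2 overlap less for all genes (13 of 40 without Ctrl replicate 1, against 32.2% of all tested genes; 10 without Sirt6mKO replicate 2, against 29.8%, or without Ctrl replicate 2, against 31.6%). H1f4 passed an adjusted p of 0.05 with limma-voom and without Ctrl replicate 3 only. H2bc6 turned to -0.0169 with scaling by library total and to -0.00303 with a pseudocount of 5. Leaving out one library turned the sign of H2aj (-0.11 to 0.331), H1f10 (-0.24 to 0.576), H1f2 (-0.427 to 0.00498), H1f3 (-0.681 to 0.197), H2bc6 (-0.183 to 0.311), H2bc4 (-0.0735 to 0.337), H2bc18 (-0.263 to 0.271), H4c14 (-0.169 to 0.298) and H2ac15 (-0.435 to 0.0499); the cause was not tested. Of the replication-dependent genes, 25 of 56 were under the mean signal of 5 and could not be tested.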

Other observations

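Rows with a matching name that are not protein-coding were not members. One of them, Hist1h2al, a processed pseudogene on chromosome 13 at 51202727 to 51203065, had 52, 43 and 1 in Sirt6mKO and 207, 175 and 73 in Ctrl, a wider gap than that of any tested histone gene (log2 fold change -3.06 ± 0.93 SE, limma-trend, Benjamini-Hochberg adjusted p = 0.0902). All Sirt6mKO libraries were below all controls, and the value of 1 in Sirt6mKO replicate 3 lies under the 3-read floor of 2.83. H3f3c, a processed pseudogene of the H3.3 family, had 10, 7 and 11 against 14, 15 and 13, and H3f3aos, the antisense RNA next to H3f3a, had 8, 5 and 5 against 14, 8 and 7.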
